A study of Mus musculus with 6 samples.

Results

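The endoplasmic reticulum chaperones and the unfolded protein response were examined in whole mouse kidney through 38 genes, out of 23785 gene symbols with a probe on the array. The genes were chosen by name, with earlier results of these data known, and their probes were found through the RefSeq accession that each probe carries. Ero1l and Ero1lb were found under their current symbols, Ero1a and Ero1b. All 38 genes had a probe and passed the filter on dim probes, and each was well above background on all 6 arrays. Total RNA was labelled with Cy3 and read on 1-colour Agilent arrays, 3 labelled WT and 3 labelled Pck1-CKO. Both groups were C57BL/6J mice killed at 32 weeks. Pck1-CKO mice were Pck1 flox/flox/γGT-Cre tg/+, so that Pck1, the cytosolic phosphoenolpyruvate carboxykinase of gluconeogenesis, was targeted where the γGT-Cre transgene is active, in the proximal tubule. The WT mice were age- and sex-matched littermates. Controls of the breeding could carry floxed Pck1 alleles (flox/flox or flox/+), and the type Pck1 flox/+/γGT-Cre tg/+ carried the transgene too. The sources used here do not say which of these types a WT array stands for, or whether the arrays are of separate animals. The p-values therefore measure only the spread among these samples.

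Proteins that enter the secretory pathway are threaded into the endoplasmic reticulum through the Sec61 channel and are folded there by chaperones of the HSP70 and HSP90 families, by the lectins calnexin and calreticulin, and by protein disulfide isomerases. Proteins that fail to fold are drawn back to the cytosol and degraded. When unfolded proteins accumulate, the membrane sensors IRE1 (Ern1), PERK (Eif2ak3) and ATF6 start the unfolded protein response. IRE1 splices the Xbp1 mRNA, ATF6 is cut to release a transcription factor, and PERK phosphorylates the translation factor eIF2alpha, which favours translation of ATF4 and, after it, of Ddit3 and Ppp1r15a. Spliced XBP1 and cleaved ATF6 raise transcription of chaperone and degradation genes. The values below are transcript signals, with no measure of splicing, cleavage or phosphorylation. Proximal tubule cells carry many membrane transporters and receptors, which are made and folded in this compartment.

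The arrays carried between 37116 and 38707 probes well above background, of 56605. WT arrays lay in slide row 1 and Pck1-CKO arrays in slide row 2 of the same slide, so genotype and slide row cannot be told apart. The targeted gene was read by a single probe (A_66_P121110), which was not lower under the Pck1-CKO label. Normalised log2 values were 6.29, 6.32 and 5.63 on the WT arrays and 6.44, 6.60 and 6.90 on the Pck1-CKO arrays (log2 change 0.56, limma adjusted p = 0.152). The position of this probe relative to the floxed exons was not given, so it does not check the labels, and all directions below are those of arrays labelled Pck1-CKO against arrays labelled WT. Normalised signal is log2 of the processed intensity minus the 75th percentile of its array, and a log2 change is the difference of the group means. Whole kidney is a mixture, in which fewer cells of a type and less RNA per cell cannot be told apart. Markers of the labelled tissue were bright, with a summed scaled signal of 8 proximal tubule markers of 1215 to 1299 in WT against 1246 to 1273 in Pck1-CKO, and 0 of the 8 passed the test.

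Of the genes of protein folding 9 of 21 rose, and of those of degradation 2 of 7. None of the 3 sensor genes passed the test, which says little for so few genes where 8.04% of all genes passed. Of the 38 genes, 11 were higher and 0 lower at a limma adjusted p under 0.05 over all 17135 genes tested, where 8.04% of all genes passed in either direction, 4.34% higher and 3.7% lower. The 11 were Derl3 and Edem1 of degradation, Sdf2l1, Hsp90b1, Dnajc3, Creld2 and Dnajb11 of the HSP70 and HSP90 machinery, the lectin Calr, and the disulfide isomerases Pdia4, Pdia3 and Pdia6. Their log2 changes ran from 0.24 to 1.83 with a median of 0.32, and 1 of them, Derl3, rose by at least 2-fold. A positive change was seen in 30 of 38 genes, against 52.2% of all genes tested, and in 26 to 34 of them under the other scalings. All 3 Pck1-CKO arrays lay above all 3 WT arrays in 20 of the 38, against 21.9% of all genes, and below them in 2, against 16.4%. The median log2 change was 0.10 over the 38 genes and 0.0091 over all genes tested. Since the 38 genes were chosen with earlier results known, these shares describe the list and do not test it.

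**Figure D1:**
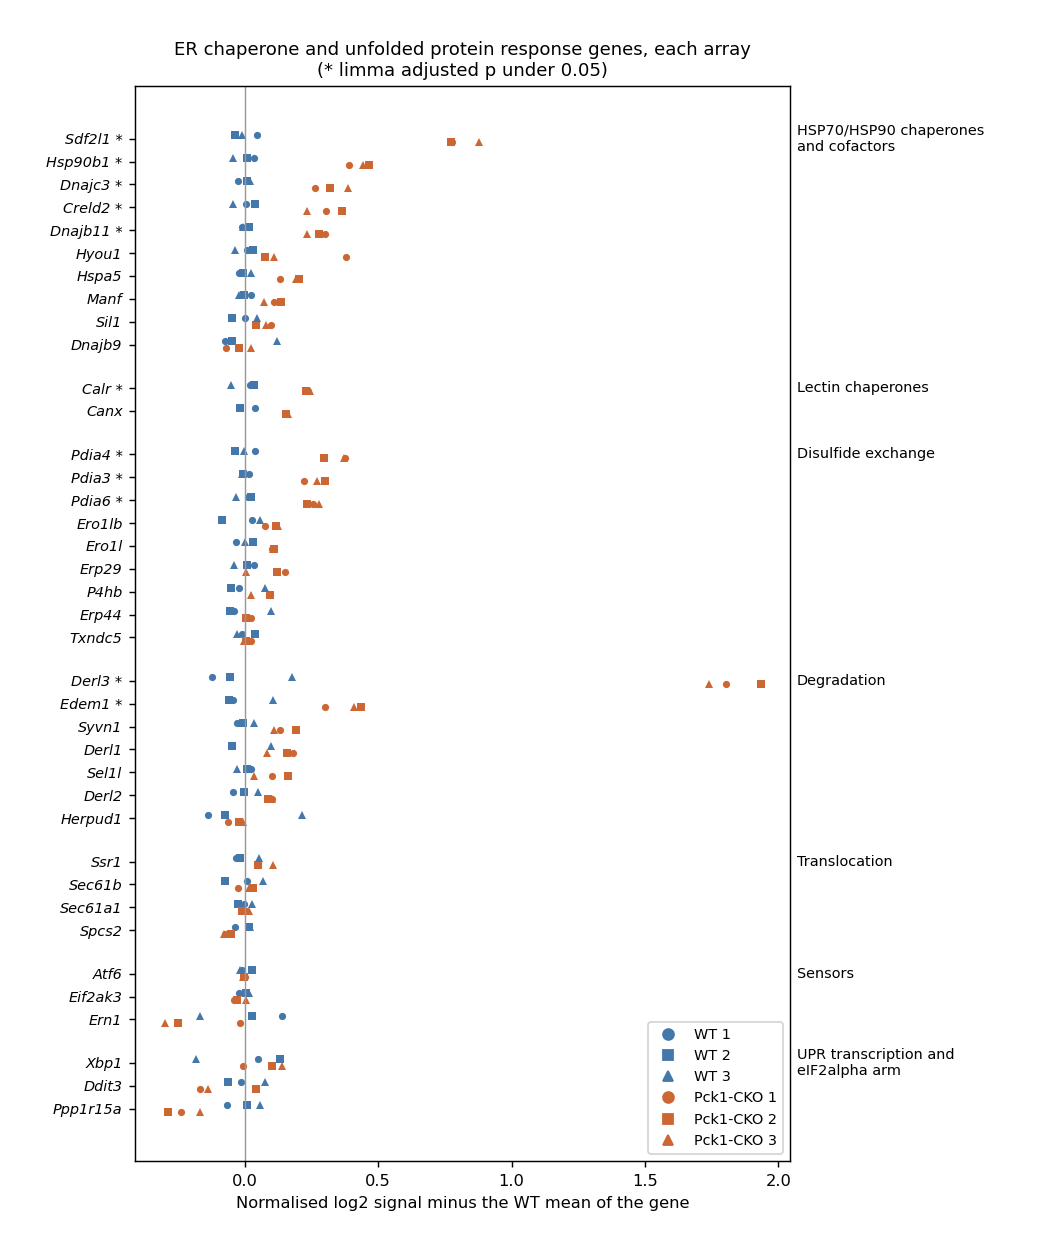
Normalised log2 signal of each of the 38 genes on each array, minus the WT mean of the gene, grouped by role; blue points are WT arrays, orange points Pck1-CKO arrays, and an asterisk marks a limma adjusted p under 0.05. Derl3 lies furthest to the right, with its Pck1-CKO arrays between -0.17 and 0.022 on the signal scale against -2.03 to -1.73 in WT, and the points of Atf6 and Eif2ak3 overlap around 0.

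Most of the calls were lost when certain single arrays were left out, while the log2 changes kept their sign. Over the 6 fits without 1 array, the change was 0.41 to 0.45 for Hsp90b1 and 0.35 to 0.43 for Edem1. With WT 1, WT 2, Pck1-CKO 1 or Pck1-CKO 2 left out in turn, 2 of the 38 genes passed each time, Derl3 and Sdf2l1, while the number of genes passing over the whole array fell from 1377 to 67, 44, 23 and 26. Without WT 3 the same 11 genes passed, and 9 of them passed without Pck1-CKO 3, all but Calr and Edem1. The 11 genes kept a positive log2 change under each of the 18 alternative settings run. With the 75th percentile taken over probes above background on all 6 arrays, the split over all genes turned from 743 higher and 634 lower to 511 and 868, and that of the 38 genes became 10 higher and 1 lower, with Calr no longer past the threshold and Ppp1r15a lower.

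Fat cell markers were higher in the arrays labelled Pck1-CKO. Of 7 brown fat markers 5 rose, against 4.34% of all genes tested, and the median log2 change of the list was 3.83. Among the 5, Elovl3 was well above background on 0 WT arrays and on 3 Pck1-CKO arrays. It passed the filter on dim probes only through the group where it is high, so its call adds no support. Ucp1, the uncoupling protein of brown fat, changed by 5.23 on the log2 scale, Otop1 by 4.27, Cox8b by 3.88 and Cidea by 3.83, while Ppargc1a, which the kidney also expresses, gave -0.20 and did not pass. Otop1 was well above background on only 2 of the WT arrays and at -7.52 on WT 1, so the size of its change is uncertain. The summed scaled signal of the list was 9.35 to 11.98 in WT against 38.4 to 42.9 in Pck1-CKO, but Ppargc1a made up 71.5% to 94.03% of it in WT. Without Ppargc1a the sum was 0.558, 3.13 and 3.25 on the WT arrays and 33.0, 31.3 and 34.9 on the Pck1-CKO arrays. Of 8 white and general adipocyte markers 1 passed, Fabp4 (log2 change 1.25), but 7 were higher at p under 0.05 before adjustment. The groups did not overlap in 7, against 38.3% of all genes tested, and the median log2 change of the list was 2.89. The complement factor and adipokine gene Cfd changed by 3.22, the lipid droplet gene Plin1 by 3.21 and Adipoq, which encodes adiponectin, by 2.94. The sum of this list was 85.9 to 102.7 against 161.6 to 203.7, and without Lpl, its brightest gene, 14.5, 30.4 and 27.5 on the WT arrays and 79.8, 75.04 and 123.4 on the Pck1-CKO arrays. In both lists WT 1 was the lowest array. The median deviation of the 21 folding genes from their WT mean was 0.0086, -0.0016 and -0.0085 on the WT arrays. On the Pck1-CKO arrays, where the fat cell sums were higher, it was 0.154, 0.155 and 0.160. The part of fat cells in the changes of the chaperone genes was not tested. Heat shock and handling genes had summed signals of 29.9 to 33.5 in WT against 35.1 to 38.6 in Pck1-CKO, and 2 of 8 rose, the cytosolic chaperone genes Dnajb1 (log2 change 0.34) and Hsph1 (0.28); their part was not tested either. The sums of fibroblast (28.5 to 37.7 against 30.9 to 35.6) and macrophage markers (25.6 to 26.0 against 24.97 to 26.2) overlapped between the groups. Csf1r alone made up 76.2% to 80.1% of the macrophage sum. Without it the sum was 5.15, 5.28 and 5.75 on the WT arrays and 6.13, 5.93 and 5.48 on the Pck1-CKO arrays. Of the 6 macrophage genes 0 passed, and they moved in both directions, with log2 changes of 0.34 for C1qb and -0.32 for Adgre1. Those of adrenal cortex markers were 0.81 to 0.86 against 0.74 to 0.79, and Cyp11a1, Cyp11b1 and Cyp11b2 were on no array well above background.

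**Figure D2:**
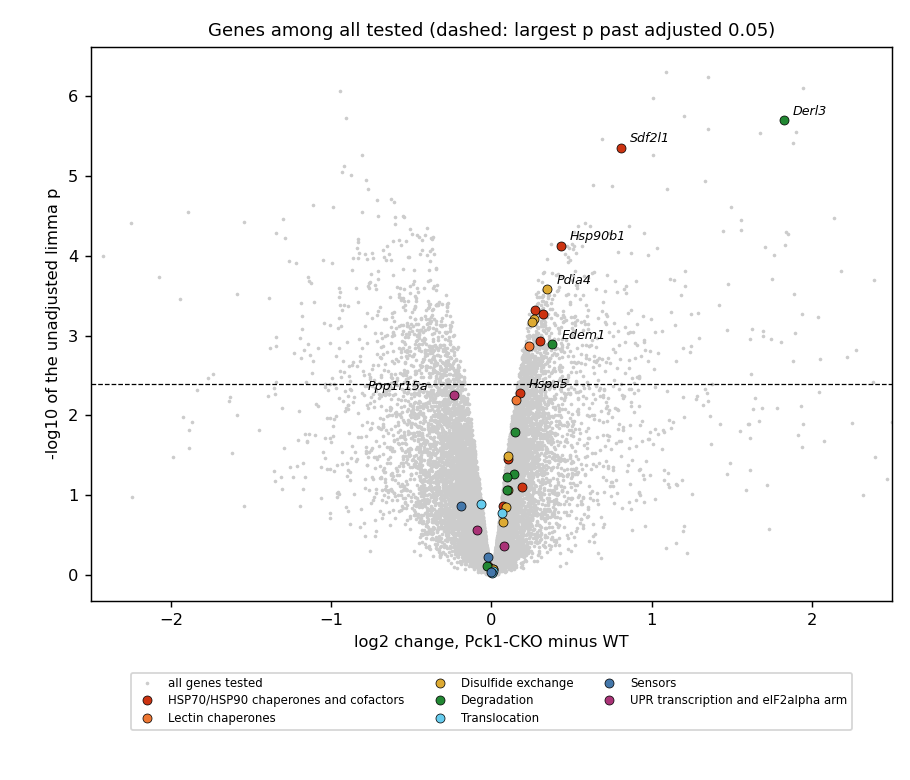
Log2 change (x axis) against -log10 of the unadjusted limma p (y axis) for all 17135 genes tested in grey, with the 38 genes coloured by role; 46 genes with a change beyond 2.5 lie outside the plotted range. Derl3 and Sdf2l1 stand near the top, ranked 8 and 16 by p among all genes.

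The promoters of these genes were read from RefSeq (GRCm38.p6), and 31 of the 38 had an entry. The 250 bases before each start were searched on both strands for the endoplasmic reticulum stress element (ERSE, CCAAT and CCACG with 9 free bases between them), for ERSE-II (ATTGG and CCACG with 1 free base between them, which shares both ends with ERSE, one of them inverted), for the core of the unfolded protein response element (TGACGTGG) and for the C/EBP-ATF element of the ATF4 arm (TGATGCAAT). The ERSE letters stood in 10 of the 31 genes, against 35 of 27025 genes with a promoter entry, or 0.130%. The genes were listed for the same response that the element is named after, so this excess is no independent result. They occurred in 6 of the 11 genes that rose, all of which had an entry, and in 4 of the 20 others. The elements are shown because they stood in 6 of the 11 genes that rose, each written in the CCAAT to CCACG direction with the fixed letters in capitals and with the strand that reads this way.
Derl3, chr10:75893242-75893260, minus strand: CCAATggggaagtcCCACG
Hsp90b1, chr10:86705638-86705656, minus strand: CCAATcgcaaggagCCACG
Hsp90b1, chr10:86705533-86705551, plus strand: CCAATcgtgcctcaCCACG
Creld2, chr15:88819520-88819538, minus strand: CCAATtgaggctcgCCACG
Dnajc3, chr14:118937827-118937845, plus strand: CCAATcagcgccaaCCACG
Calr, chr8:84847075-84847093, plus strand: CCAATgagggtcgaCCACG
Pdia6, chr12:17266491-17266509, plus strand: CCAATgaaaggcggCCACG
Hspa5, chr2:34772025-34772043, plus strand: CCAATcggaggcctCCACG
Canx, chr11:50325800-50325818, minus strand: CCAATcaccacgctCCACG
Syvn1, chr19:6046532-6046550, plus strand: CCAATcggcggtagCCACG
Ero1lb, chr13:12565682-12565700, minus strand: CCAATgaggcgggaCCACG

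Among the genes that rose, Derl3, Hsp90b1, Creld2, Dnajc3, Calr and Pdia6 held the element, and Hsp90b1 held it 2 times. Of the genes that held it and did not pass the test, Hspa5, Canx, Syvn1 and Ero1lb all had their Pck1-CKO arrays above their WT arrays. Over all genes tested 21.9% did so, and these genes were chosen with earlier results known. The median log2 change was 0.25 in the 10 genes with the ERSE letters and 0.069 in the 21 others with an entry. The part of these letters in the changes was not tested. Of 25 other genes that held them, 11 were tested, 0 passed in limma (2 were higher and 2 lower at p under 0.05 before adjustment) and the median log2 change was -0.062. ERSE-II was found in Herpud1 (ATTGGgCCACG, fixed letters in capitals, against 0.037% of all genes), and the TGACGTGG core in Txndc5 (0.603% of all genes). The C/EBP-ATF letters were in 0 of the 31 genes and in 0.192% of all. A match of letters is a description and not a binding site. The promoters of Derl3, Hsp90b1 and Sdf2l1 are given 5′ to 3′ on the strand of the gene, with the ERSE letters of either strand in capitals. Sdf2l1 rose with no complete match to any of the elements searched for in this window.
Derl3 promoter, chr10:75893148-75893397, plus strand: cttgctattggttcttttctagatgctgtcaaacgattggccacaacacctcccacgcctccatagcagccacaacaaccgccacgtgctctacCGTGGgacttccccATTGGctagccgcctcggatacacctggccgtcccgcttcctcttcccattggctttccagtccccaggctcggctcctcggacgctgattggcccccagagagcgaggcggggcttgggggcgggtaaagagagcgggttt
Hsp90b1 promoter, chr10:86705445-86705694, minus strand: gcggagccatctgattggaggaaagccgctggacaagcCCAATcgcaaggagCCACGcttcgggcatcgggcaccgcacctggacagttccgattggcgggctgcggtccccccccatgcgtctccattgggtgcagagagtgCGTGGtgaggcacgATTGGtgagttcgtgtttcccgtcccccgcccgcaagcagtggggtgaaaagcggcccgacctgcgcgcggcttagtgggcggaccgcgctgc
Sdf2l1 promoter, chr16:17132384-17132633, minus strand: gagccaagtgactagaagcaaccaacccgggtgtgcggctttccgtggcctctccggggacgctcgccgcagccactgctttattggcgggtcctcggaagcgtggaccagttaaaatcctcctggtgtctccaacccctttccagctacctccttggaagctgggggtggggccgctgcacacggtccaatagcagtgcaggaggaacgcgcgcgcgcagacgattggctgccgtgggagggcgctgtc

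The chaperones of the HSP70 and HSP90 machinery gave 5 of 10 genes that rose, with a median log2 change of 0.23. Sdf2l1 encodes a partner of the HSP70 cochaperones that keeps unfinished proteins soluble. Its normalised log2 signal was 0.0083, -0.076 and -0.050 on the WT arrays and 0.74, 0.74 and 0.84 on the Pck1-CKO arrays. Both groups were tight and far apart, and Sdf2l1 rose by 0.81 ± 0.05 on the log2 scale (SE, n = 3 arrays a group, limma adjusted p = 0.00480), or 1.75-fold. Sdf2l1 passed under 17 of 18 alternatives, the exception being the replicate block.

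Hsp90b1 encodes GRP94, the HSP90 of the endoplasmic reticulum, which folds integrins and secreted factors. It read 5.54, 5.52 and 5.47 on the WT arrays and 5.90, 5.98 and 5.95 on the Pck1-CKO arrays. The change of 0.43 ± 0.04 (limma adjusted p = 0.0152) was 1.35-fold, and the groups were apart by more than their own spread. Dnajc3 encodes P58IPK, an HSP40 cochaperone of BiP. Its signal was 1.22, 1.26 and 1.27 on the WT arrays and 1.51, 1.57 and 1.64 on the Pck1-CKO arrays, a change of 0.32 ± 0.05 (limma adjusted p = 0.0280). Dnajb11, another HSP40 cochaperone of BiP, is known in the kidney as a gene of cystic disease. It measured 3.26, 3.29 and 3.27 on the WT arrays and 3.57, 3.55 and 3.51 on the Pck1-CKO arrays, a change of 0.27 ± 0.04 (limma adjusted p = 0.0268). A second Dnajb11 probe rose by 0.30, and the third was on no array well above background. Creld2, a secreted stress-induced protein with disulfide isomerase activity, read 3.86, 3.89 and 3.81 on the WT arrays and 4.16, 4.22 and 4.09 on the Pck1-CKO arrays, with a change of 0.30 ± 0.05 (limma adjusted p = 0.0338).

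Hspa5 encodes BiP, the central HSP70 of the compartment and the best known marker of the unfolded protein response. Its signal was 5.17, 5.19 and 5.22 on the WT arrays and 5.32, 5.40 and 5.38 on the Pck1-CKO arrays. The groups did not overlap, yet the change of 0.18 ± 0.04 did not pass over all genes (limma adjusted p = 0.0548), with a 95% interval of 0.076 to 0.28. The other 2 Hspa5 probes gave 0.094 and 0.15. Hyou1, the large HSP70 relative that acts as nucleotide exchange factor of BiP, read -1.90, -1.88 and -1.94 on the WT arrays and -1.53, -1.83 and -1.80 on the Pck1-CKO arrays. Pck1-CKO 1 was higher than the other arrays of its label, and the change was 0.19 with limma adjusted p = 0.207. The Hyou1 probes disagreed in size, since a dimmer one gave 0.48 with limma adjusted p = 0.0399 over probes, of which 4.29% passed, and the third gave 0.31. Manf, a secreted chaperone-binding factor, was at 1.60, 1.57 and 1.55 on the WT arrays and 1.68, 1.71 and 1.64 on the Pck1-CKO arrays, a change of 0.11 (limma adjusted p = 0.132). Sil1, the other exchange factor of BiP, had a change of 0.074 with overlapping groups.

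Dnajb9 was the 1 gene of this role with a negative change. It encodes ERdj4, a cochaperone that BiP uses to hold IRE1 inactive. Its values were 1.58, 1.60 and 1.77 on the WT arrays and 1.58, 1.63 and 1.67 on the Pck1-CKO arrays, so the groups overlapped, and the change was -0.021 with an interval of -0.18 to 0.14, its sign turning without scaling. A dimmer Dnajb9 probe was at -1.95, -1.94 and -2.10 on the WT arrays and -2.25, -2.31 and -2.41 on the Pck1-CKO arrays, a change of -0.33 (limma adjusted p = 0.0591 over probes).

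**Figure D3:**
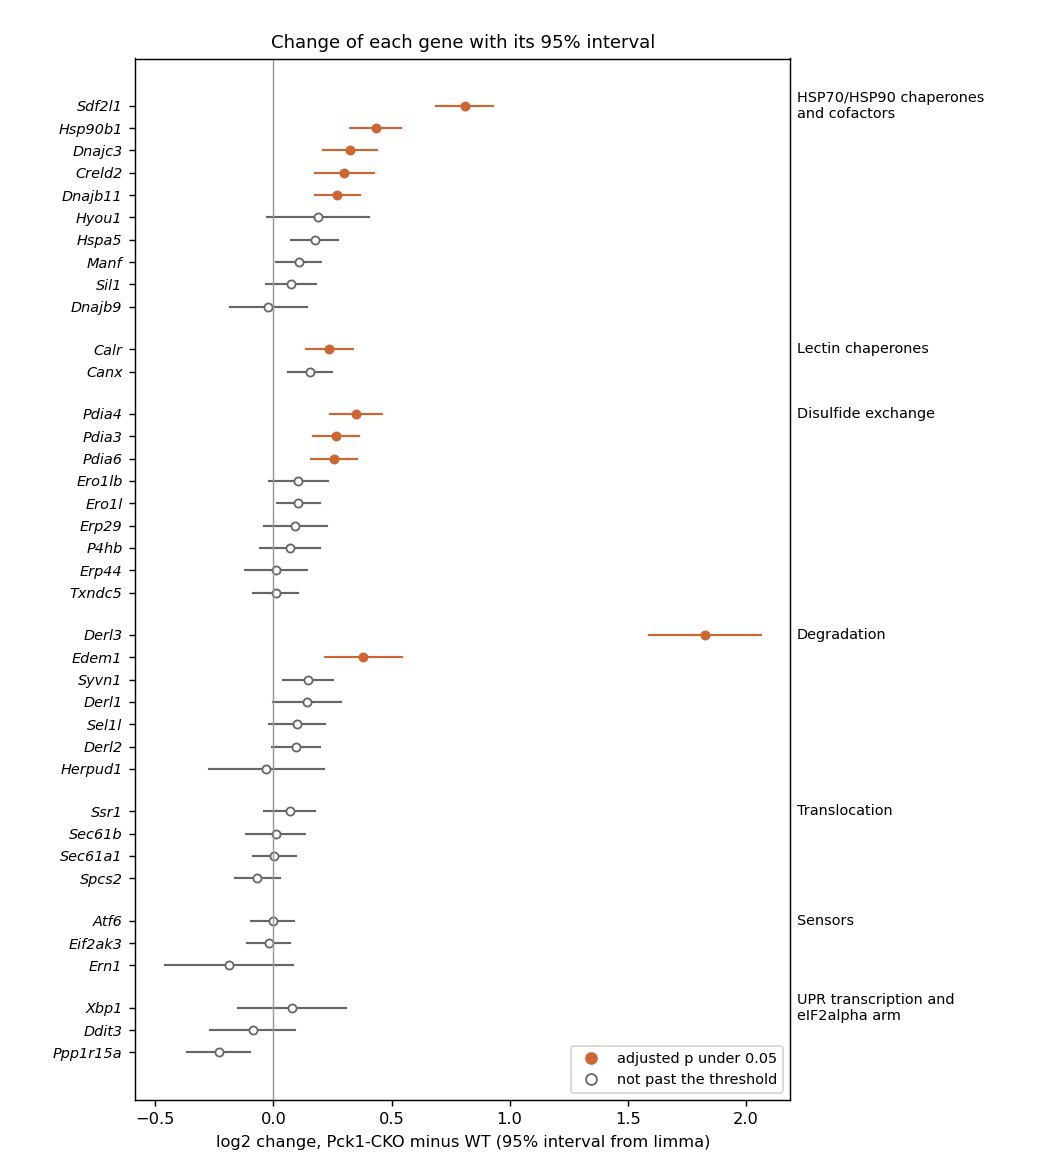
Log2 change of each gene with its 95% interval from limma, grouped by role; filled orange points passed an adjusted p of 0.05 and open points did not. The interval of Derl3 runs from 1.59 to 2.06, and those of the 3 sensor genes include 0.

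Both lectin chaperones, which hold glycoproteins until their sugars are trimmed, had a positive change. Calr (calreticulin) read 4.75, 4.77 and 4.68 on the WT arrays and 4.97, 4.96 and 4.98 on the Pck1-CKO arrays. It rose by 0.24 ± 0.04 on the log2 scale (limma adjusted p = 0.0349), the smallest change among the 11 genes. Canx (calnexin) was at 5.91, 5.85 and 5.85 on the WT arrays and 6.03, 6.03 and 6.03 on the Pck1-CKO arrays. Its groups were apart, but the change of 0.16 ± 0.04 missed the threshold (limma adjusted p = 0.0590), and the second Canx probe gave 0.031.

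The disulfide exchange genes gave 3 of 9 that rose, and all 9 had a positive change, with a median of 0.11. Pdia4 encodes ERp72, an isomerase with several active thioredoxin domains. Its signal was 0.89, 0.81 and 0.85 on the WT arrays and 1.23, 1.15 and 1.22 on the Pck1-CKO arrays, a change of 0.35 ± 0.04 (limma adjusted p = 0.0224). Pdia3, which encodes ERp57 and works with calnexin and calreticulin, read 3.84, 3.82 and 3.81 on the WT arrays and 4.05, 4.12 and 4.09 on the Pck1-CKO arrays. It rose by 0.26 ± 0.04 (limma adjusted p = 0.0286), and a dimmer probe by 0.33. Pdia6, an isomerase that also binds IRE1, was at 5.66, 5.67 and 5.61 on the WT arrays and 5.90, 5.88 and 5.93 on the Pck1-CKO arrays, a change of 0.26 ± 0.04 (limma adjusted p = 0.0294). In each of these 3 isomerase genes the gap between the groups was wider than the spread within them.

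The oxidases that recharge the isomerases did not pass the test. Ero1l read 2.27, 2.33 and 2.30 on the WT arrays and 2.40, 2.41 and 2.40 on the Pck1-CKO arrays, a change of 0.11 (limma adjusted p = 0.125). Ero1lb read -1.54, -1.65 and -1.51 on the WT arrays and -1.49, -1.45 and -1.44 on the Pck1-CKO arrays, also 0.11 (limma adjusted p = 0.219). In both the groups did not overlap. P4hb, the founding protein disulfide isomerase, and Erp29, which lacks the catalytic cysteine pair, had changes of 0.071 and 0.092 with overlapping groups. Erp44, which retains the ERO1 oxidases, and the isomerase Txndc5 had changes of 0.012 and 0.0089, with intervals of -0.12 to 0.14 and -0.086 to 0.10. For the last 2 genes the sign turned under quantile normalization.

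In the degradation group 2 of 7 genes rose, and the median log2 change was 0.14. Derl3, a member of the derlin family that helps move misfolded proteins out of the endoplasmic reticulum, had the largest change of the 38. Its signal was -2.03, -1.97 and -1.73 on the WT arrays and -0.11, 0.022 and -0.17 on the Pck1-CKO arrays. The distance between the groups was many times the spread within either, and the change was 1.83 ± 0.10 (limma adjusted p = 0.00425), or 3.54-fold. Leaving out single arrays gave 1.76 to 1.91, and with normexp background correction it was 1.44. Among all genes tested, Derl3 ranked 8 by p and 67 by the size of its increase. Its relatives did not pass, with log2 changes of 0.14 for Derl1 (3.22, 3.22 and 3.37 on the WT arrays and 3.45, 3.43 and 3.35 on the Pck1-CKO arrays) and 0.097 for Derl2 (limma adjusted p = 0.166 and 0.176).

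Derl3 is abundant in plasma cells and in secretory cells such as those of the exocrine pancreas, so their markers were read beside it. Jchain, the joining chain of plasma cell antibodies, was at 0.40, 0.13 and 1.73 on the WT arrays and 2.02, 1.69 and 0.64 on the Pck1-CKO arrays. Mzb1, a plasma cell chaperone, was at -2.27, -2.32 and -1.65 on the WT arrays and -1.55, -1.55 and -1.80 on the Pck1-CKO arrays. In both genes the groups overlapped, and Pck1-CKO 3 lay below WT 3. Sdc1, a surface proteoglycan of plasma cells and of epithelia, was at -1.67, -1.58 and -1.54 on the WT arrays and -1.37, -1.45 and -1.47 on the Pck1-CKO arrays, so its groups did not overlap, with a change of 0.17 (limma adjusted p = 0.107). Of 10 plasma and B cell markers 8 were tested. None of them rose, 1 was higher at p under 0.05 before adjustment, and the B cell gene Cd79b fell by 0.44 on the log2 scale. The groups did not overlap in 4 of the 8, near the share of 38.3% over all genes tested. Tnfrsf17 was on no array well above background. The summed signal was 7.55 to 10.6 in WT against 8.55 to 11.3 in Pck1-CKO, and without Fcrl5, its brightest gene, 2.80, 2.61 and 4.99 on the WT arrays and 5.48, 4.62 and 3.001 on the Pck1-CKO arrays.

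Of 8 pancreatic acinar markers 4 were tested and 0 passed in limma (0 were higher and 0 lower at p under 0.05 before adjustment). Their summed signal, 80.6 to 96.0 in WT against 76.2 to 77.7 in Pck1-CKO, was 99.3% to 99.7% that of Cela1 alone and so does not describe the list. Without Cela1 the sum was 0.267, 0.246 and 0.687 on the WT arrays and 0.264, 0.228 and 0.226 on the Pck1-CKO arrays, with WT 3 the highest. Prss2 and Pnlip were on no array well above background. The part of plasma cells or acinar cells in the change of Derl3 was not tested.

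Edem1, a lectin that extracts glycoproteins from the folding cycle, read 1.23, 1.22 and 1.38 on the WT arrays and 1.58, 1.71 and 1.69 on the Pck1-CKO arrays. It rose by 0.38 ± 0.07 (limma adjusted p = 0.0349), and its other probe gave 0.25 (limma adjusted p = 0.0601 over probes). Syvn1 encodes HRD1, the ubiquitin ligase of the degradation channel, and Sel1l its adaptor. Syvn1 was at 4.14, 4.17 and 4.21 on the WT arrays and 4.30, 4.36 and 4.28 on the Pck1-CKO arrays, a change of 0.14 (limma adjusted p = 0.0895). Sel1l was at 3.70, 3.68 and 3.64 on the WT arrays and 3.78, 3.84 and 3.71 on the Pck1-CKO arrays, a change of 0.10 (limma adjusted p = 0.216). The groups were apart in both, but neither passed.

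Herpud1, a membrane protein that joins the ligase complex and is induced by both the XBP1 and the ATF4 arms, read 4.46, 4.52 and 4.81 on the WT arrays and 4.53, 4.57 and 4.59 on the Pck1-CKO arrays. WT 3 was the highest array and the rest overlapped, with a change of -0.030, whose sign turned without scaling, and an interval of -0.27 to 0.21. WT 3 was the highest array on the second Herpud1 probe too, with 2.38, 2.39 and 2.72 on the WT arrays and 2.46, 2.32 and 2.46 on the Pck1-CKO arrays. Without WT 3 the change of Herpud1 was 0.078.

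None of the 4 translocation genes passed in limma (0 were higher and 0 lower at p under 0.05 before adjustment), and the median log2 change was 0.0059. Over all genes tested 8.04% passed, so a count of 0 of 4 says little. Sec61a1, the pore of the channel, read 4.15, 4.13 and 4.18 on the WT arrays and 4.16, 4.14 and 4.17 on the Pck1-CKO arrays. Its change of 0.0031 had an interval of -0.088 to 0.094, whose upper bound is below the smallest change among the 11 genes that rose. Sec61b, a small subunit of the channel, had a change of 0.0086 with an interval of -0.12 to 0.13. In Sec61a1 and Sec61b the probes of a gene differed in sign, and the sign of both genes turned under quantile normalization. Ssr1, a subunit of the translocon-associated complex, read 3.32, 3.33 and 3.40 on the WT arrays and 3.40, 3.40 and 3.46 on the Pck1-CKO arrays, a change of 0.069. A dimmer Ssr1 probe gave 0.79 with limma adjusted p = 0.182 over probes, and ran from -1.95 to -0.99 within WT. Spcs2, a signal peptidase subunit, was the 1 translocation gene with a negative change (-0.068, limma adjusted p = 0.277).

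**Figure D4:**
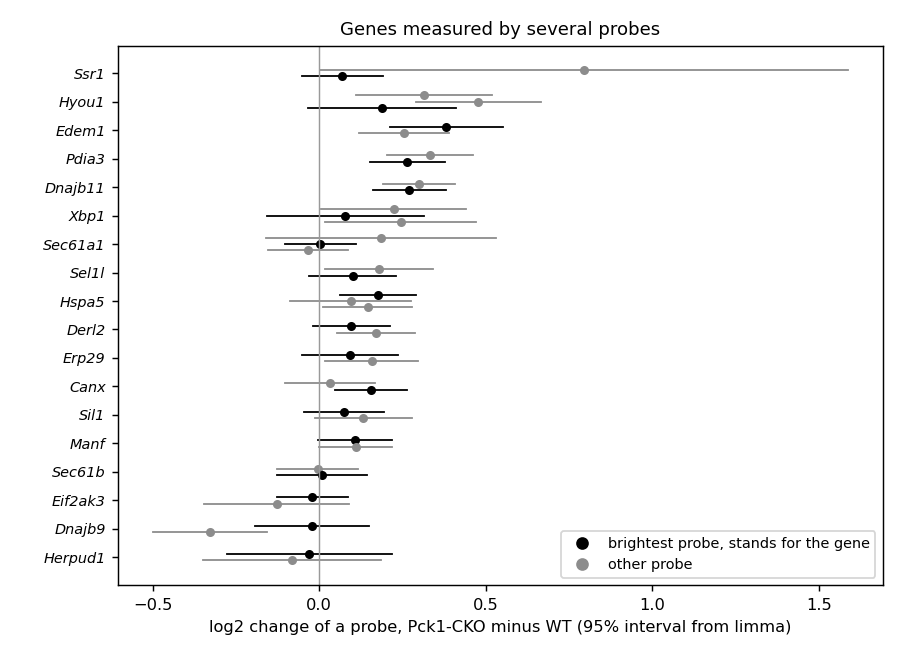
Log2 change of each kept probe with its 95% interval, for the 18 genes with several kept probes; black marks the brightest probe, which stands for the gene. In 16 of the 18 genes all probes had the same sign, and the exceptions were Sec61a1 and Sec61b.

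Transcripts of the 3 sensors did not pass in limma (0 were higher and 0 lower at p under 0.05 before adjustment), beside 8.04% of all genes that passed. Atf6 was at 0.92, 0.96 and 0.91 on the WT arrays and 0.93, 0.93 and 0.92 on the Pck1-CKO arrays, a change of -0.0039 with an interval of -0.093 to 0.085. Eif2ak3, which encodes PERK, was at 0.78, 0.81 and 0.82 on the WT arrays and 0.76, 0.78 and 0.81 on the Pck1-CKO arrays, a change of -0.021 with an interval of -0.11 to 0.071. For these 2 sensors the groups overlapped, and the sign of both turned without scaling and with normexp. Ern1, which encodes IRE1, spread more widely, with -0.51, -0.63 and -0.82 on the WT arrays and -0.67, -0.90 and -0.95 on the Pck1-CKO arrays, a change of -0.19 and an interval of -0.46 to 0.081.

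Downstream of the sensors, Xbp1 read 5.03, 5.11 and 4.79 on the WT arrays and 4.97, 5.07 and 5.11 on the Pck1-CKO arrays. On this probe, the brightest of Xbp1, WT 3 was the lowest array, the groups overlapped, and the change was 0.079 with an interval of -0.15 to 0.31. The other Xbp1 probes gave 0.22 and 0.24 (limma adjusted p = 0.173 and 0.162 over probes). On both, all Pck1-CKO arrays lay above all WT arrays, as in 21.9% of all genes tested. Whether any of these probes separates spliced from unspliced Xbp1 was not tested. Ddit3 encodes CHOP, the transcription factor linked to cell death in prolonged stress. It was at -0.76, -0.81 and -0.67 on the WT arrays and -0.91, -0.70 and -0.88 on the Pck1-CKO arrays, a change of -0.089 with an interval of -0.27 to 0.092. Ppp1r15a encodes GADD34, the phosphatase subunit that reverses eIF2alpha phosphorylation. It read 1.72, 1.79 and 1.84 on the WT arrays and 1.54, 1.49 and 1.62 on the Pck1-CKO arrays. All Pck1-CKO arrays lay below all WT arrays, and the change of -0.23 ± 0.05 did not pass (limma adjusted p = 0.0556), although it did under 5 of 18 alternatives.

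**Figure D5:**
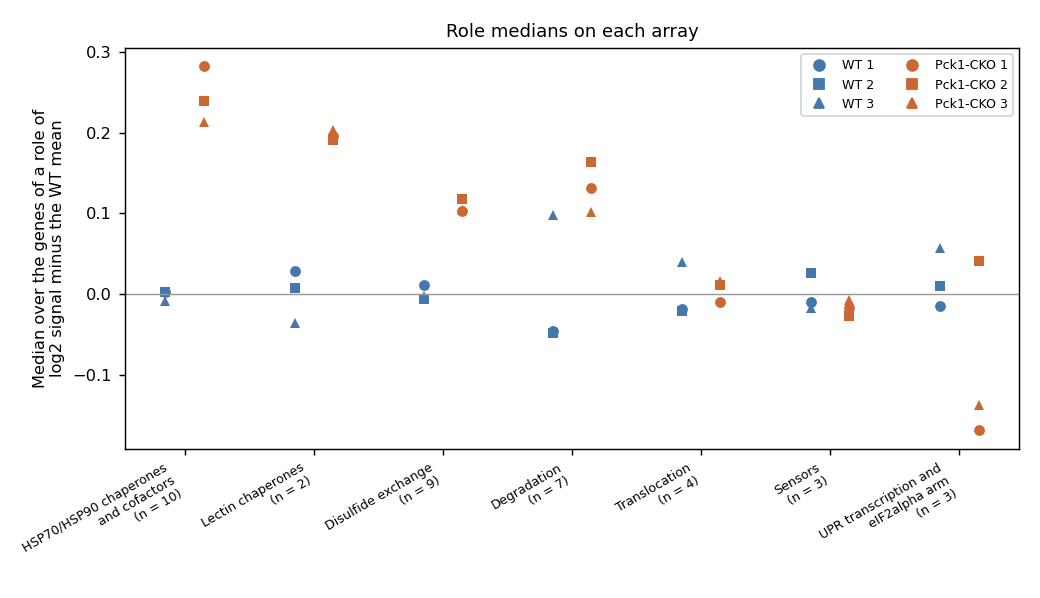
Median over the genes of a role of the log2 signal minus the WT mean of the gene, for each array; blue points are WT and orange points Pck1-CKO. In the HSP70 and HSP90 role the Pck1-CKO arrays lie between 0.21 and 0.28, and in the sensor role between -0.027 and -0.0074.

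Set side by side, 9 of 21 folding genes (chaperones, lectins and disulfide exchange) rose, with a median log2 change of 0.18. Of the degradation genes 2 of 7 rose. Of the sensors with the transcription and eIF2alpha genes 0 of 6 passed in limma (0 were higher and 1 lower at p under 0.05 before adjustment), with a median of -0.055. Since 8.04% of all genes passed, 0 of 6 is near the share over all genes. On single arrays, the median deviation of the HSP70 and HSP90 role from the WT mean was 0.28, 0.24 and 0.21 in Pck1-CKO. That of the lectins was 0.20, 0.19 and 0.20, and that of disulfide exchange 0.10, 0.12 and 0.10. The degradation role was at 0.13, 0.16 and 0.10 in Pck1-CKO, and WT 3 at 0.098 was just below the last of these. Translocation and sensor medians of the groups overlapped. The difference between roles was not tested.

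Further genes of the same pathways numbered 85, of which 84 were tested. Of these 3 were higher and 1 lower, or 4.76% beside 8.04% of all genes, and 64 had a positive change. Atf4, the transcription factor of the PERK arm, read 5.24, 5.30 and 5.25 on the WT arrays and 5.59, 5.61 and 5.54 on the Pck1-CKO arrays, and rose by 0.31 ± 0.04 (limma adjusted p = 0.0239). Crebrf, which restrains the stress factor CREB3, was at -1.32, -1.44 and -1.40 on the WT arrays and -1.65, -1.66 and -1.62 on the Pck1-CKO arrays, and fell by 0.26 on the log2 scale (limma adjusted p = 0.0379). These were the 2 of 16 further signalling genes that passed. Edem3, a mannosidase related to Edem1, read 0.44, 0.42 and 0.44 on the WT arrays and 0.62, 0.66 and 0.63 on the Pck1-CKO arrays and was the 1 of 14 further degradation genes that rose (0.20, limma adjusted p = 0.0360). Sec11a, the catalytic subunit of signal peptidase, read 3.93, 4.03 and 4.06 on the WT arrays and 4.34, 4.40 and 4.26 on the Pck1-CKO arrays and was the 1 of 21 further translocation and glycosylation genes that rose (0.33, limma adjusted p = 0.0360). The calls of Atf4, Crebrf, Edem3 and Sec11a were not followed through the alternative settings.

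Of 21 further folding genes tested, 0 passed in limma (3 were higher and 2 lower at p under 0.05 before adjustment). The lowest p was that of the isomerase gene Pdia5, with a log2 change of -0.31 (0.74, 0.77 and 0.82 on the WT arrays and 0.37, 0.40 and 0.62 on the Pck1-CKO arrays, limma adjusted p = 0.0625). Unlike Pdia3, Pdia4 and Pdia6, all its Pck1-CKO arrays lay below its WT arrays. Of 12 genes of transport to the Golgi 0 passed in limma (3 were higher and 1 lower at p under 0.05 before adjustment), and 11 had a positive change. Mia3, which helps load large cargo such as collagen, came closest with a log2 change of 0.20 (limma adjusted p = 0.0584).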

How the data were processed

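The deposited intensity values came, per the file headers, from Agilent Feature Extraction 10.7.1.1, which had subtracted background from the processed signal and detrended it. A deposited value table gives each signal as a linear ratio to 1 factor per array, found by setting it against the scanner values. It served as an alternative, and how the authors chose the factor was not stated.

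Spots with outlier flags (46 to 94 per array) were left out, log2 was taken, replicate spots were averaged by probe, and the 75th percentile of the array was subtracted. Probes were named through unversioned RefSeq accessions (GRCm38.p6); 34675 of 56605 had 1 symbol. The file headers name another build, so no probe coordinates are given. A probe was kept if it was well above background on 3 or more of the 6 arrays, and the brightest stood for its gene. The 17135 genes were fitted with limma 3.58.1 in R 4.3.3 (lmFit, eBayes, 2-sided, Benjamini-Hochberg, threshold 0.05); errors are its standard errors and intervals cover 95%. The model was tested on simulated data. Alternatives were other scalings, normexp on the median signals, other filters and probe rules, flagged spots kept, other variance settings, the replicate block and leaving out each array.

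The 38 genes and all lists were chosen with earlier results of these data known. Named genes were Pck1, all 38, and of each further list up to 3 that passed or the 1 with the lowest p; Dnajb1, Hsph1 and the marker genes came from the marker lists. The number of arrays limits the precision. Whether the numbers of the samples pair them is not known. Deviations of same-numbered arrays from their group means correlated at -0.0010, -0.11 and -0.023 across genes, and those of other pairs at -0.076 to 0.12. With 3 arrays a group, these values cannot show that pairing was absent.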

Additional observations from a re-analysis of the deposited data

How the results depend on the processing

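Of the 38 genes, 11 passed in the fit as reported, and 13 of their probes did in a fit over probes. Between 10 and 15 genes passed with quantile normalization, the percentile over detected probes, normexp, the series matrix, the stricter filter, the median over probes, flagged spots kept, or a trended robust variance. Without scaling between arrays 559 genes passed in all, 4 of the 38 and 4 of their probes. Without a filter on dim probes, which adds genes to the adjustment, 142, 3 and 2 passed. With array weights 5900, 18 and 25 passed. With a trended robust variance 2831 genes and 21 probes passed. With the replicate number as a block 4 genes, 0 of the 38 and 0 probes passed (14 of the 38 higher and 2 lower at p under 0.05 before adjustment). Whether the numbers pair the samples is not known. Deviations from the group means did not correlate best between arrays of the same number. Leaving out 1 array gave 23 to 1569 genes, 2 to 11 of the 38 and 0 to 7 probes.

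The sign turned only in genes that had not passed. With quantile normalization the log2 changes were -0.026 for Erp44, -0.030 for Txndc5, -0.027 for Sec61b and -0.022 for Sec61a1. With the percentile over detected probes they were -0.026 for Erp44, -0.029 for Txndc5, -0.029 for Sec61b and -0.035 for Sec61a1. Without scaling they were 0.022 for Dnajb9, 0.013 for Herpud1, 0.023 for Eif2ak3 and 0.040 for Atf6. With normexp they were -0.0059 for Txndc5, -7.2e-05 for Sec61b, 0.019 for Eif2ak3 and 5.5e-05 for Atf6. With array weights they were 0.012 for Dnajb9, -0.0096 for Txndc5, 0.037 for Herpud1 and 0.011 for Ddit3, and with the median over probes -0.033 for Sec61a1. Leaving out 1 array gave -0.016 to 0.060 for Erp44, -0.029 to 0.043 for Sec61b, -0.0090 to 0.017 for Sec61a1, -0.013 to 0.0099 for Atf6, -0.059 to 0.040 for Dnajb9, -0.0058 to 0.028 for Txndc5, -0.10 to 0.078 for Herpud1 and -0.013 to 0.14 for Xbp1. The causes were not tested. Slide and scan could not serve as blocks, since all arrays shared them. The number of arrays, 3 a group, limits the precision.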

Other observations

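WT 3 differed from the other WT arrays in several of these genes, noted after the values were seen. It was the highest of the 6 arrays for Herpud1 on both probes and for the brighter Dnajb9 probe (1.77 against 1.58 and 1.60 in WT 1 and WT 2), and the lowest for Xbp1 on all 3 probes (1.36 against 1.55 and 1.56, and 0.95 against 1.05 and 1.21, on the dimmer ones). The immediate early gene Egr1 was at 0.49 in WT 3, at -0.96 and -0.64 in WT 1 and WT 2, and at -1.50 to -1.23 in Pck1-CKO. Fos was at -1.86 in WT 3 and at -3.00 and -2.90 in WT 1 and WT 2. Fosb and Jun, the other immediate early genes listed, did not both follow. For Fosb, WT 3 was the lowest WT array (-4.28). For Jun, WT 3 was the highest WT array (2.19), but Pck1-CKO 1 (2.36) and Pck1-CKO 2 (2.24) were higher. Of the digestive enzyme genes of the exocrine pancreas, Try4, Ctrb1, Cpa1, Cela3b and Cela1 read highest in WT 3. Prss2 and Pnlip did too, but were on no array well above background. Only Cel did not (-3.51 in WT 3, against -3.47 in WT 1). Try4 was at -2.67 in WT 3 and between -8.14 and -7.62 on the other 5 arrays, where it was not well above background. Ctrb1 was at -1.93 in WT 3 against -3.19 to -3.03. Without WT 3 the log2 change of Xbp1 was -0.013, and the same 11 genes passed.

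Alg12, a mannosyltransferase gene of glycan assembly, also held the ERSE letters. It was chosen after its values were seen. It read 1.34, 1.40 and 1.46 on the WT arrays and 1.59, 1.60 and 1.60 on the Pck1-CKO arrays, a log2 change of 0.20 with limma adjusted p = 0.0535.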
